A study of Rattus norvegicus with 9 samples.

Results

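The Fos and Jun genes encode the subunits of activator protein 1 (AP-1), and their transcripts were followed in rat adrenal zona glomerulosa cells exposed to the stimuli of aldosterone secretion, angiotensin II (Ang II) and raised potassium. The members were all probe sets named for Fos, Fosb, Fosl1, Fosl2, Jun, Junb or Jund alone in the platform annotation, 7 of 14217 genes so named, with 13 of 31042 probe sets outside the array's control features. Every one of the 7 genes had at least 1 probe set among the 18625 tested, and 11 of the 13 probe sets were tested. Freshly isolated cells of 3 independent preparations were each divided into a control tube, a tube with 100 nM Ang II and a tube with 16 mM potassium. All tubes were held for 2 h at 37 °C in DMEM:F12 with 0.5% fatty acid-free albumin under 5% CO2, so the controls had also been dispersed and incubated. The labels used here state no age, sex or strain of the rats, no number of rats per preparation and no potassium concentration of the control medium. RNA of each tube was hybridised to 1 Affymetrix Rat Genome 230 2.0 array, giving 3 arrays per group and 9 in all.

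AP-1 is a dimer of leucine-zipper proteins. Jun proteins pair with themselves or with Fos proteins, whereas Fos proteins need a partner, and the pair binds a short palindromic site in promoters and enhancers. Fos and Fosb are classical immediate early genes. The products of Fosl1 and Fosl2, also called Fra-1 and Fra-2, lack the strong activation domain of Fos, and JunB and JunD are weaker activators than c-Jun at many promoters. In glomerulosa cells Ang II acts through a G protein-coupled receptor, calcium release and protein kinase C, while potassium depolarises the membrane and opens calcium channels.

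The members did not move as a block. Potassium raised Junb 2.15-fold and lowered Fosl1 2.29-fold, while both probe sets of Fosl2 and 2 of 3 probe sets of Jun rose by 1.38-fold to 1.74-fold. Ang II raised Junb 1.37-fold and Fosb 1.27-fold, and no member was called lower. Neither of these 2 calls held without preparation 1 or without the intensity trend of the variance. Fosl1 was 1.31-fold and the Jun probe set 1369788_s_at 1.32-fold higher after Ang II, short of the threshold in limma's test (adjusted p = 0.059 and 0.092). The widest gap between the stimuli was that of Fosl1, 3.00-fold higher after Ang II than after potassium (adjusted p = 2.2e-07, limma with Benjamini-Hochberg adjustment). Fos, the gene for which the family is named, did not pass the test in any comparison.

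The 300 bases around the annotated start sites, from 250 before to 50 after, were available for 5 of the 7 genes, all but Fos and Jun, in RefSeq's GRCr8 assembly. They are shown for Junb and Fosl2, which rose together after potassium, for Fosl1, which fell, and for Jund, which did not pass the test. The windows are chr19:40080876-40081175 on the plus strand for Junb, chr6:30039220-30039519 on the minus strand for Fosl2, chr1:212183635-212183934 on the plus strand for Fosl1 and chr16:18769722-18770021 on the minus strand for Jund. Capitals mark the cyclic AMP response element (CRE, TGACGTCA), the binding site of CREB, and its half-site (TGACG, or CGTCA on the other strand), which is also part of the full element.
Junb: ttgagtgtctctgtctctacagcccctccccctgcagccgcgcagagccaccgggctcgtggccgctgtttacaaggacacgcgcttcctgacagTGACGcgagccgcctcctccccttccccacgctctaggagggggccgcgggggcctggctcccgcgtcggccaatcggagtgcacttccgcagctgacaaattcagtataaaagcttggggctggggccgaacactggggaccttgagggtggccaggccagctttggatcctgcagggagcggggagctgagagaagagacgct
Fosl2: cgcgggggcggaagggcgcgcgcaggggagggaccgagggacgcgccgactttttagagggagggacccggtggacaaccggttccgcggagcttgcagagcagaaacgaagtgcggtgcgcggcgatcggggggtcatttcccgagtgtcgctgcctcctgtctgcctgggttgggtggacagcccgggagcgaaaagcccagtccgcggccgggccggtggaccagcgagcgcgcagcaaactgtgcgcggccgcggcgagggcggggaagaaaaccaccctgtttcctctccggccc
Fosl1: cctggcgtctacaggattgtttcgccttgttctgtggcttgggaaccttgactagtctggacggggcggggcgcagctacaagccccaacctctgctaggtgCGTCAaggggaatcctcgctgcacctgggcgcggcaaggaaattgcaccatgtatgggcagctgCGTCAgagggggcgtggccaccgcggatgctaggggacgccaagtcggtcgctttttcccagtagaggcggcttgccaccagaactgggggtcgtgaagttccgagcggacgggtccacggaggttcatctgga
Jund: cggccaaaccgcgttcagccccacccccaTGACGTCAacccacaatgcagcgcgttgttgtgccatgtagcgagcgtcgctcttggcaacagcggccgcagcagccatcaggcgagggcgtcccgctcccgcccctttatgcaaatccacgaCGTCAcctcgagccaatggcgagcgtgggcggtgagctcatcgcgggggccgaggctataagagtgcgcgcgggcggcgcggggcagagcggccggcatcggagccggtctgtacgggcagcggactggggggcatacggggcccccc
Jund held the full element with its first base at -221 from the start site, and a separate half-site at -98. Junb held 1 half-site at -155 and Fosl1 held 2, at -148 and -84. No half-site was found in these windows of Fosl2 and Fosb. Among 33469 promoters of the same length 1.83% held the full element and 21.2% a half-site. The AP-1 site (TGANTCA), present in 7.33% of all promoters, and the CArG box bound by serum response factor, present in 1.64%, were not found in any of the 5 windows. Both strands were searched, and a match describes the letters only.

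Signals are the deposited linear intensities, 1 per probe set and array, and tests were made on log2(signal + 16), a scale that understates changes of dim probe sets. A probe set was called when its adjusted p, taken over all 18625 tested probe sets, was under 0.05. Different probe sets were ranked by brightness for the filter on low signals and to pick the brightest of a gene. No test compared their signals. After removal of the lowest and highest 2% the mean signal was 500.2 on every array. The median signal was 172.9 on the control array of preparation 2 and 128.0 to 143.6 on the other 8. Without that control array the members called were 2 after Ang II and 6 after potassium, as many as with it. The ratio of 3′ to 5′ signal of Gapdh, a measure of RNA integrity, was 1.50 to 1.59 in the controls, 1.37 to 1.50 after Ang II and 1.31 to 1.50 after potassium, with every control above every stimulated array. For beta-actin it was 3.12 to 3.46, 2.88 to 3.01 and 2.66 to 3.60. Their part in the results was not tested. The 11 named genes of the zona glomerulosa list, with Star (18870 in the controls) and Dab2 (11700) among the bright ones, all lay above the filter on low signals. Whether these genes set this zone apart from the rest of the cortex was not tested. The aldosterone synthase gene was not analysed here. Shh had means of 76.7 in the controls and 67.6 after Ang II, under the filter's signal of 81.9, and 202.8 after potassium. Kcnk9 was also dim (104.7, 102.6 and 74.5). Star was itself called higher after Ang II (0.29 ± 0.06) and after potassium (0.34 ± 0.06). Markers of other cells were present too. Those listed for zona fasciculata had control means of 28310 (Akr1b7), 18120 (Akr1b8) and 3302 (Cyp11b1), and the red blood cell gene Hbb had 17730. Control means were 7624 for the endothelial gene Kdr, 5528 for the fibroblast gene Dcn and 735 for the medullary gene Th. The summed signal of each list of other cell types overlapped between the 3 groups, as it did from 14828 to 18474 (controls), 15369 to 18373 (Ang II) and 15878 to 18898 (potassium) for endothelium. Of the single markers of other cells 1 was called, the smooth muscle actin gene Acta2, higher after Ang II by 0.40 ± 0.10 (adjusted p = 0.049), at means of 804.6 in the controls and 1060 after Ang II. Its part in the results was not tested. Fewer cells of a type and less RNA per cell cannot be told apart in such samples.

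Junb showed a graded pattern over the groups. In preparations 1, 2 and 3 its signal was 4582, 4247 and 5281 in the controls, 6252, 6188 and 6878 after Ang II, and 9974, 10761 and 9593 after potassium. The lowest stimulated array lay above the highest control, and every potassium array above every Ang II array. The log2 fold change was 0.46 ± 0.08 (SE) after Ang II (adjusted p = 0.0045) and 1.11 ± 0.08 after potassium (adjusted p = 4.7e-07). Of the 18625 tested probe sets 77 had a larger increase after potassium. The direct comparison gave -0.65 ± 0.08 for Ang II against potassium (adjusted p = 0.00013). Within preparations 1, 2 and 3 the difference was -0.67, -0.80 and -0.48. The increase after Ang II was not called without preparation 1 (adjusted p = 0.11) or without the intensity trend of the variance (0.21), and the direct difference was not called without that trend (0.069).

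Jun, which encodes c-Jun, had 3 tested probe sets, and they differed in what they showed. The probe set 1389528_s_at read 11904, 10812 and 12091 in the controls, 13189, 12768 and 15136 after Ang II, and 16271, 15585 and 16071 after potassium. The groups did not overlap, and each preparation kept the order control, Ang II, potassium. It rose by 0.46 ± 0.06 on the log2 scale after potassium (adjusted p = 0.00027), and its value after Ang II was 0.24 ± 0.06 (adjusted p = 0.066). Between the stimuli it was -0.23 ± 0.06 (adjusted p = 0.051), and was called in 5 of 21 alternative settings and with a filter on the mean signal (0.049). The probe set 1374404_at read 3184, 2862 and 3239 in the controls, 3305, 3277 and 4486 after Ang II, and 4571, 5126 and 4862 after potassium. Here the Ang II array of preparation 3 stood nearer to the potassium arrays than to the other Ang II arrays. The log2 fold change was 0.65 ± 0.09 after potassium (adjusted p = 0.00047) and 0.24 ± 0.09 after Ang II (adjusted p = 0.23). Without the intensity trend both potassium calls of Jun ended (adjusted p = 0.076 each).

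The third probe set of Jun, 1369788_s_at, was not called in any comparison. It read 9425, 8296 and 10480 in the controls and 11956, 11938 and 13238 after Ang II, without overlap. After potassium it read 8876, 14159 and 14154, so that preparation 1 lay below its own control while the other preparations lay above all controls. Its log2 fold change was 0.40 ± 0.11 after Ang II (adjusted p = 0.092) and 0.37 ± 0.11 after potassium (adjusted p = 0.075). Without the potassium array of preparation 1 the value after potassium became 0.59, with an adjusted p of 0.0015. Without the control array of preparation 1 it was 0.50 (adjusted p = 0.037), and without the whole of preparation 1 it was 0.60 (adjusted p = 0.0066). Its value after Ang II was 0.53 and called (adjusted p = 0.047) without that control array, and 0.40 and called (0.011) in a fit of the Ang II and control arrays alone. The suffix _s_at marks, in the array maker's naming, probe sets whose probes may match more than 1 transcript.

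Jund, often the most steadily expressed Jun gene, had 1 bright and 2 dim probe sets. The bright one, 1393138_at, read 10798, 9530 and 10999 in the controls, 11545, 12252 and 9031 after Ang II, and 9421, 7599 and 8701 after potassium. The potassium arrays lay below all controls, and the Ang II arrays reached both above and below the controls. Its log2 fold change was -0.29 ± 0.10 after potassium (adjusted p = 0.12) and 0.06 ± 0.10 after Ang II (adjusted p = 0.85), and neither passed the test. The 95% interval after Ang II ran from -0.15 to 0.27. Its sign after Ang II turned with quantile normalization (-0.01). It also turned without the control array of preparation 2 (-0.01), without the Ang II array of preparation 2 (-0.10) and without preparation 2 (-0.09). The decrease after potassium was called with quantile normalization (-0.35, adjusted p = 0.032) and in a fit of the potassium and control arrays alone (adjusted p = 0.031). Between the stimuli the value was 0.34 ± 0.10 (adjusted p = 0.062), called in 5 of 21 alternative settings, without the Ang II array of preparation 3 among them (0.50, adjusted p = 0.0043). The probe set 1387762_s_at read 26.5 to 115 and varied most after potassium (110, 26.5 and 75.5), with -0.69 ± 0.34 (adjusted p = 0.30). The probe set 1375768_at, at 5.40 to 123, lay below the filter and was not called without it.

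**Figure D1:**
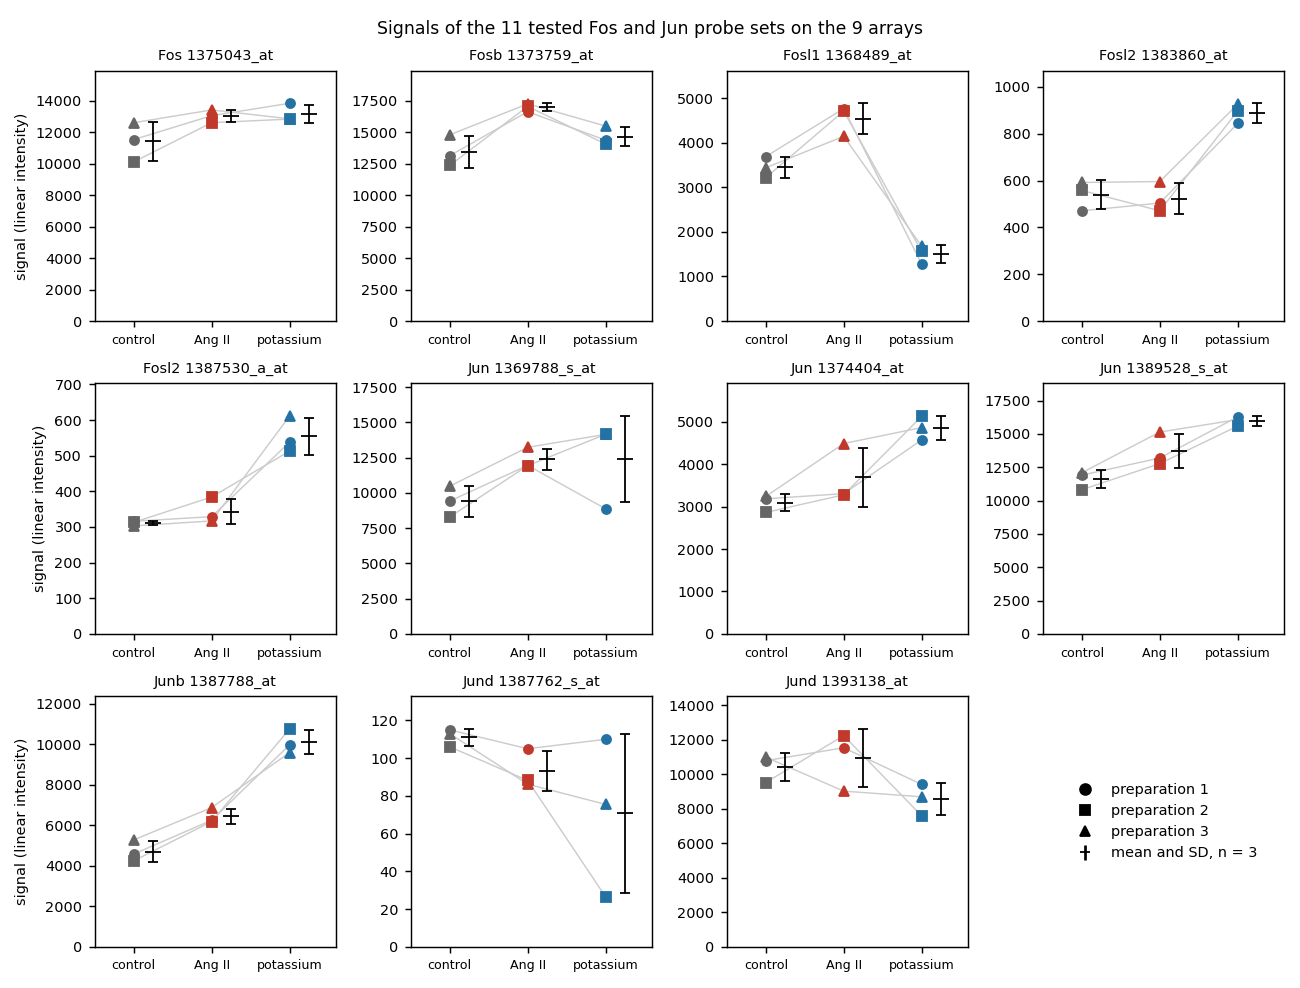
Linear signal of each of the 11 tested Fos and Jun probe sets (y axes, starting at 0 and differing between panels) in control, Ang II and potassium arrays (x axes), with 1 point per array, grey lines joining arrays of 1 preparation and black bars for mean and SD (n = 3). Junb stepped up from control to Ang II to potassium, while Fosl1 lay at 1280 to 1680 after potassium against 3216 to 3689 in the controls.

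Fosb rose after Ang II on its 1 probe set, and Fos did not pass the test. Fosb read 13127, 12350 and 14781 in the controls, 16618, 17042 and 17240 after Ang II, and 14361, 14052 and 15481 after potassium. The Ang II arrays lay above all others, and the potassium arrays overlapped the controls. The log2 fold change was 0.34 ± 0.06 after Ang II (adjusted p = 0.0056) and 0.13 ± 0.06 after potassium (adjusted p = 0.27). The direct comparison of Ang II with potassium gave 0.21 ± 0.06 (adjusted p = 0.058) and was called in 4 of 21 alternative settings, with quantile normalization among them (0.017). The Ang II call did not hold without the Ang II array of preparation 1 (adjusted p = 0.055) or of preparation 2 (0.054), without preparation 1 (0.14) or without the intensity trend (0.23).

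Fos had 1 bright and 1 dim probe set. The bright one, 1375043_at, read 11527, 10109 and 12599 in the controls, 13049, 12604 and 13413 after Ang II, and 13835, 12830 and 12848 after potassium. The stimulated arrays lay just above the highest control, with Ang II and potassium arrays intermingled. Within preparation 3 the stimulated arrays exceeded their own control by only 0.09 and 0.03 on the log2 scale. The intervals of the change ran from 0.05 to 0.34 after Ang II and from 0.07 to 0.35 after potassium. The value after potassium was called without the control array of preparation 3 (0.28, adjusted p = 0.038). The interval for Ang II against potassium, -0.16 to 0.13, held 0. The other probe set, 1371283_at, read 12.1 to 79.0 and lay below the filter. The highest signals of the arrays were 33568 to 42803, and whether saturation compressed the changes of Fos and Fosb was not tested.

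The Fos-related genes moved apart. Fosl1 read 3689, 3216 and 3438 in the controls, 4764, 4709 and 4143 after Ang II, and 1280, 1561 and 1680 after potassium. The 3 groups were separate, with potassium arrays lowest and Ang II arrays highest in every preparation. The log2 fold change was -1.19 ± 0.10 after potassium (adjusted p = 2.5e-06), and only 28 of the 18625 tested probe sets had a lower value. After Ang II it was 0.39 ± 0.10 (adjusted p = 0.059), short of the threshold. That value passed in 5 of 21 alternative settings, among them scaling arrays to a common median (0.52, adjusted p = 0.03), centring on the tested median (0.43, 0.038) and leaving out the Ang II array of preparation 3 (0.50, 0.041). In the direct comparison Fosl1 was higher after Ang II by 1.59 ± 0.10, and 18 tested probe sets had a larger difference in that direction.

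Fosl2 rose after potassium on both of its probe sets. The probe set 1383860_at read 471, 558 and 592 in the controls, 504, 471 and 596 after Ang II, and 844, 897 and 926 after potassium. The probe set 1387530_a_at read 316, 313 and 303 in the controls, 329, 384 and 317 after Ang II, and 538, 513 and 611 after potassium. On both, all potassium arrays lay above all other arrays. The log2 fold changes after potassium were 0.71 ± 0.11 (adjusted p = 0.0012) and 0.80 ± 0.14 (adjusted p = 0.0027). After Ang II they were -0.04 ± 0.11 (interval -0.28 to 0.19) and 0.13 ± 0.14 (interval -0.16 to 0.43), and neither passed. The first of these turned sign when arrays were scaled to a common median (0.07). The same followed without the control array (0.01) or the Ang II array (0.04) of preparation 2, and without that preparation (0.05). The direct comparison gave -0.75 ± 0.11 (adjusted p = 0.00076) and -0.67 ± 0.14 (adjusted p = 0.010). The second of these direct differences ended in 7 of 21 alternative settings, with adjusted p-values up to 0.15. They were the omission of the intensity trend, of preparations 1 or 3, of the Ang II array of either of these, or of the potassium array of either.

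**Figure D2:**
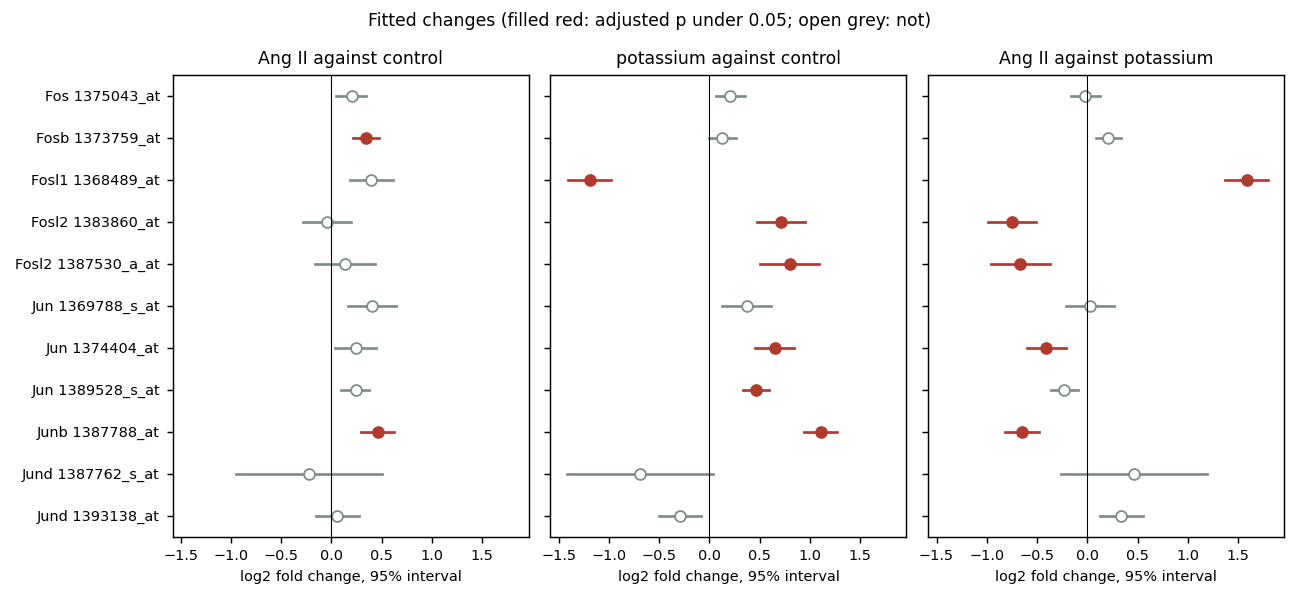
Fitted log2 fold change (x axes) with its 95% interval for the 11 tested Fos and Jun probe sets (y axis) in the 3 comparisons, filled red where the adjusted p was under 0.05. In the middle panel Fosl1 lies at -1.19 and Junb at 1.11.

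Counted over the family, 2 of the 11 tested probe sets were called higher after Ang II and 0 lower in limma's test, and 5 of the other 9 had an unadjusted p under 0.05, as had 14.5% of all tested probe sets, called ones included. Over all tested probe sets 2.20% were called, 1.66% higher and 0.532% lower. The median log2 fold change was 0.24, against -0.03 over all probe sets. After potassium 5 were called higher, of the genes Fosl2, Jun and Junb, and 1 lower, Fosl1, where 5.36% of all tested probe sets were called, 2.78% higher and 2.58% lower. The median was 0.37, against -0.02 over all. Between Ang II and potassium 1 was higher (Fosl1) and 4 were lower (both probe sets of Fosl2, 1 of Jun and that of Junb), where 4.79% of all were called, 3.09% higher and 1.70% lower. The call of Jun 1374404_at in this comparison (-0.41 ± 0.09, adjusted p = 0.018) ended in 9 of 21 settings, among them the fit without the preparation as a replicate block (adjusted p = 0.085), scaling arrays to a common median (0.094) and leaving out any single Ang II or potassium array of preparations 1 or 2. The comparisons with control share their 3 control arrays, and the probe sets of 1 gene share their transcript. The family itself was chosen with earlier results of these data known. The shares over all tested probe sets include dim ones, whereas most members were bright. The tested probe sets of Fos, Fosb, Fosl1, Jun and Junb, and the bright one of Jund, lay at percentiles 94.7 to 99.4 of mean log2 signal. The part of brightness in these counts was not tested.

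The ranges of the 3 arrays per group gave a second description that needs no variance model. After Ang II 8 of the 11 tested probe sets lay wholly above the controls and 1 wholly below, against 7.30% and 7.75% of all tested probe sets. Some gaps were narrow. The lowest Ang II array of Fosl2 1387530_a_at read 317 against 316 in the highest control. For Fos 1375043_at these were 12604 and 12599, and for Jun 1374404_at 3277 and 3239. The probe set wholly below was the dim Jund 1387762_s_at, its highest Ang II array at 105 and its lowest control at 106. All tested probe sets of Jun were among those above, and they share their transcript. After potassium 6 lay above and 2 below, against 7.84% and 9.78%. Of Ang II against potassium 2 lay above and 5 below, against 9.72% and 9.06%. These shares, too, include dim probe sets.

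By the root mean square difference of the 6 within-preparation log2 differences from control, 3 genes with the nearest pattern were named for each called member. For Fosl1 they were Sdc1, the cell-surface proteoglycan syndecan-1 (0.148), Hmga1, a chromatin architectural protein (0.205), and Actr3b, an actin-related protein (0.214). Their log2 fold changes after Ang II and potassium were 0.52 and -1.09, 0.46 and -1.26, and 0.48 and -0.95. For Junb they were Alas1, the first enzyme of haem synthesis (0.065), the orphan nuclear receptor Nr4a3 (0.118) and the zinc-finger factor Klf4 (0.124). These had log2 fold changes of 0.43 and 1.04, 0.56 and 1.12, and 0.52 and 1.00. For Fosb the nearest gene was Nfkb1, the NF-kappa-B subunit p50 and its precursor (0.035), with 0.34 and 0.15, followed by Polr2g and Pim3. The probe sets of Fosl2 were nearest to Med23, Cnot6l and Ndrg1, and to Trpm7, Hoxb6 and Fgfr2. Those of Jun were nearest to Sppl2a, Xpo1 and Nedd4, and to Insig1, Pcsk5 and Herc4. The differences share their control array within a preparation. Since the genes were chosen on these differences, their likeness to the member follows from the choice.

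**Figure D3:**
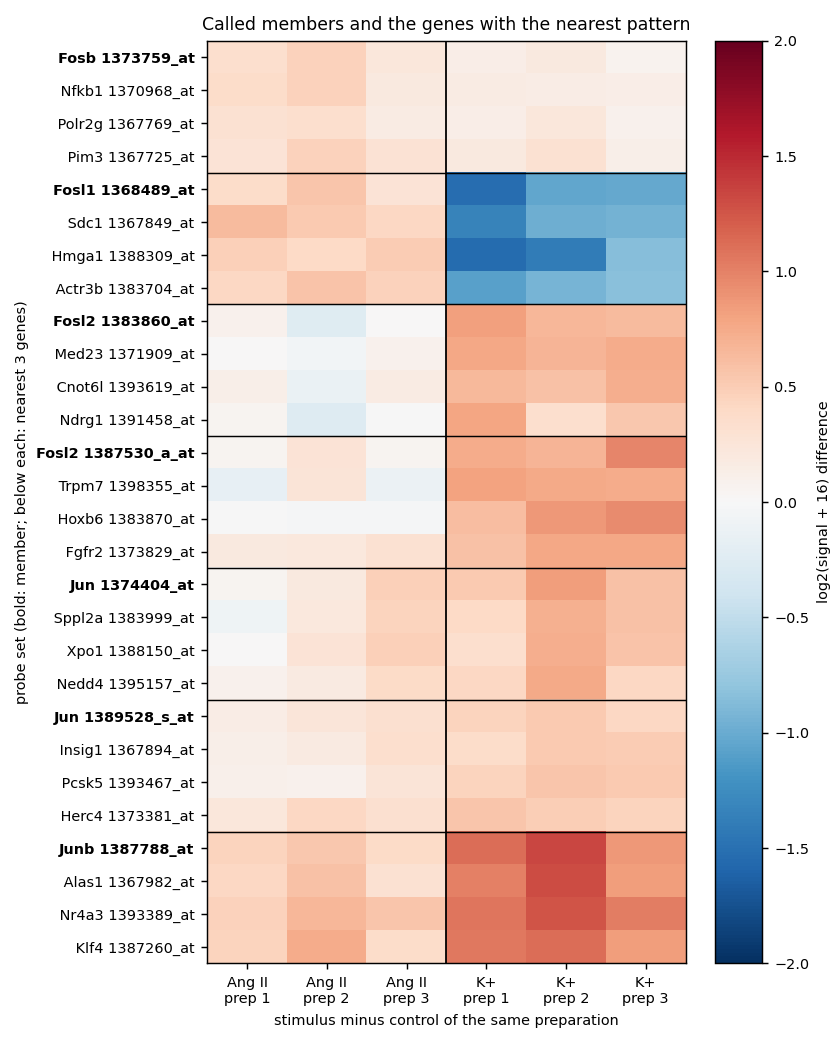
Log2(signal + 16) of each stimulated array minus the control array of its preparation (colour, from -2 to 2) for the 7 called Fos and Jun probe sets (bold) and the 3 genes nearest to each (rows), in 3 preparations per stimulus (columns). Fosl1 is raised in the Ang II columns and lowered in the potassium columns, between -1.03 and -1.52 there. Its neighbours share this pattern because they were chosen on these same columns.

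Other leucine-zipper factors can pair with or compete with AP-1. The 4 lists around AP-1, given from here on, were chosen with earlier results of these data known. Each list gene stands on its brightest probe set, whereas the shares cover all tested probe sets, dim ones included. Whether a list differed from these shares was not tested. Of 29 tested, 3 rose and 0 fell after Ang II, where 1.66% of all tested probe sets were called higher and 0.532% lower, and the median was 0.03. After potassium 3 rose and 1 fell, where 2.78% and 2.58% of all were called, and the median was 0.00. Nfil3, a repressor of the zipper class, rose by 0.68 ± 0.09 after Ang II and 0.94 ± 0.09 after potassium, from 4539 ± 763 (SD, n = 3) to 7221 ± 474 and 8645 ± 564. Crem, which encodes activators and repressors at the CRE, rose by 0.45 ± 0.08 and 0.69 ± 0.08 on its brightest probe set, while 1 of its 5 other tested probe sets had the opposite sign after Ang II. Its call after Ang II ended in 5 of 21 settings. Cebpb, a factor of metabolic and inflammatory genes, rose by 0.57 ± 0.07 after potassium, and its relative Cebpg fell (-0.31 ± 0.07, a call that ended in 13 of 21 settings, and its other tested probe set had the opposite sign). Maff, a small Maf protein without an activation domain, rose by 0.32 ± 0.08 after Ang II, a call that ended in 14 of 21 settings. Maff was also higher after Ang II than after potassium, by 0.41 ± 0.08 (adjusted p = 0.0043, ending in 4 of 21 settings). Atf3, a stress-induced partner of Jun proteins, read 6338 ± 781, 6480 ± 802 and 6572 ± 1090 in control, Ang II and potassium arrays, and its log2 values of 0.03 ± 0.07 and 0.05 ± 0.07 did not pass. Jdp2, a Jun dimerization protein and repressor, had -0.03 ± 0.21 and -0.09 ± 0.21. Between the stimuli 2 were higher after Ang II, Maff and Cebpg (0.34 ± 0.07, ending in 10 of 21 settings), and 2 lower, Cebpb (-0.33 ± 0.07, ending in 7) and Ddit3 (-0.29 ± 0.08, ending in 15), where 3.09% and 1.70% of all were called. Here too the other tested probe set of Cebpg had the opposite sign.

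Kinases and factors upstream of AP-1 include the MAP kinases and serum response factor. Of 35 tested, 0 were called after Ang II in limma's test (9 at an unadjusted p under 0.05), where 2.20% of all tested probe sets were called and 14.5% had such a p. After potassium 4 fell and 0 rose, where 2.58% and 2.78% of all were called. The medians were 0.03 and -0.07. Srf, the serum response factor that binds the CArG box, fell by 0.60 on the log2 scale after potassium, from 1919 ± 266 to 1269 ± 231 (adjusted p = 0.00059), and its value after Ang II was 0.06 ± 0.09, with the opposite sign on its other tested probe set. Prkcd, the delta isoform of protein kinase C, fell from 3945 ± 189 to 2822 ± 421 (-0.49 ± 0.08). Map2k3, a kinase of the p38 pathway, fell from 8578 ± 229 to 7022 ± 464 (-0.29 ± 0.07, ending in 11 of 21 settings). Mapk7, or ERK5, fell from 156 ± 70.5 to 38.9 ± 26.5, a level under the filter's signal of 81.9, and its call ended in 7 of 20 settings. In the direct comparison 5 were higher after Ang II and 0 lower, where 3.09% and 1.70% of all were called: these 4 and Map2k1, a kinase of the ERK pathway (0.35 ± 0.08, ending in 12 of 21 settings).

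A list of brakes and turnover factors held MAP kinase phosphatases, mRNA decay factors and proteins of ubiquitin-dependent turnover, and also Elavl1 (HuR), which stabilises AU-rich messages, and Cops5, known as a coactivator of Jun. Of 19 tested, 7 rose and 0 fell after Ang II, where 1.66% and 0.532% of all tested probe sets were called, with a median of 0.28. This list, too, was chosen with earlier results known. After potassium 2 rose and 1 fell, where 2.78% and 2.58% were called, with a median of 0.10. Zfp36l2, which promotes decay of AU-rich messages, rose by 0.55 ± 0.07 after Ang II, Dusp14 by 0.62 ± 0.09, Dusp5, a nuclear ERK phosphatase, by 0.50 ± 0.08, and Zfp36l1 by 0.29 ± 0.06. The remaining calls after Ang II were Dusp1, Zfp36, or tristetraprolin (0.38 ± 0.09), and Elavl1 (0.29 ± 0.07). The calls of Zfp36l1, Zfp36 and Elavl1 ended in 13, 11 and 15 of 21 settings. Dusp5 fell after potassium (-0.28 ± 0.08), a call that ended in 15 of 21 settings, and was higher after Ang II than after potassium by 0.79 ± 0.08 (adjusted p = 2e-05), as was Zfp36l2 by 0.46 ± 0.07, the only 2 of the list called between the stimuli. Dusp14 rose by 0.77 ± 0.09 after potassium. Dusp1, a phosphatase of p38 and JNK, read 12264 ± 844 in the controls, 14866 ± 1210 after Ang II and 15177 ± 298 after potassium. Its increases of 0.28 ± 0.07 and 0.31 ± 0.07 passed, and ended in 14 and 6 of 21 settings.

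Genes described elsewhere as AP-1 targets include proteases, their receptors and stress genes. Of 34 tested, 8 rose and 0 fell after Ang II (median 0.10), where 1.66% and 0.532% of all tested probe sets were called. The choice of these genes was also made with earlier results known. After potassium 4 rose and 3 fell (median 0.06), where 2.78% and 2.58% were called. Sprr1a, a cornified envelope protein, rose from 164 ± 49.9 to 940 ± 95.9 after Ang II (2.44 ± 0.20). The stromelysin gene Mmp3 rose from 514 ± 191 to 1350 ± 250 (1.41 ± 0.15). Ptgs2, or cyclooxygenase-2, rose by 0.84 ± 0.10 after Ang II and 1.15 ± 0.10 after potassium, and the urokinase receptor gene Plaur by 0.58 ± 0.09 after Ang II. The angiogenic factor Vegfa rose by 0.29 ± 0.07 after Ang II (ending in 14 of 21 settings) and 0.53 ± 0.07 after potassium, and the stimuli did not pass the test against each other (-0.24 ± 0.07, adjusted p = 0.053). The remaining calls after Ang II were the urokinase gene Plau (0.45 ± 0.09), the cell cycle inhibitor Cdkn1a (0.41 ± 0.08) and the protease inhibitor Timp1 (0.25 ± 0.06), which ended in 10, 9 and 15 of 21 settings. After potassium the metallothionein gene Mt2A rose by 0.26 ± 0.06 (ending in 13 of 21 settings), and the macrophage elastase gene Mmp12 fell (-0.68 ± 0.12). The remaining calls after potassium were Sprr1a (0.89 ± 0.20, ending in 8 of 21 settings), Hmox1 (-0.29 ± 0.08) and the cytokine gene Il1b (-0.32 ± 0.09), the latter pair ending in 14 of 21 each. In the direct comparison 8 were higher after Ang II and 0 lower, where 3.09% and 1.70% of all were called, among them Sprr1a (1.55 ± 0.20), Mmp3 (1.18 ± 0.15), Hmox1, or haem oxygenase (0.57 ± 0.08), and Plaur (0.48 ± 0.09). The other 4, Cdkn1a, Timp1, Mmp12 and Lgals3, ended in 9, 14, 17 and 16 of 21 settings. In this comparison the other tested probe set of Cdkn1a had the opposite sign.

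**Figure D4:**
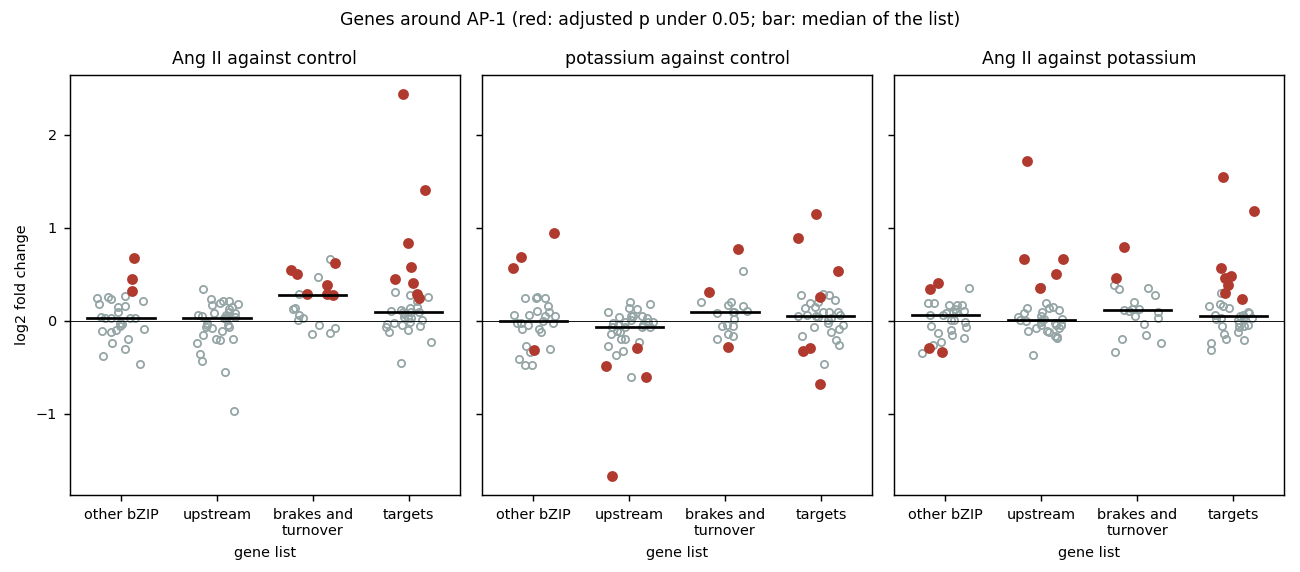
Fitted log2 fold change (y axis) of each tested gene of 4 lists around AP-1 (x axes: other leucine-zipper factors, upstream kinases and factors, brakes and turnover, described targets) in the 3 comparisons, with 1 point per gene, red where the adjusted p was under 0.05, and a bar at the median of the list. The list of brakes and turnover factors has a median of 0.28 after Ang II, and Sprr1a is the highest point at 2.44. All 4 lists were chosen with earlier results of these data known.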

How the data were processed

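One array was run per tube, for 3 groups and 3 cell preparations. The deposited values are linear intensity values, 1 per probe set. Per the submitters' processing notes the authors used GCOS. No source used here states how background was corrected or probes were combined. Of 31099 probe sets 57 were controls. Names came from the platform annotation, updated through RefSeq's GRCr8 gene table, which left 20826 probe sets with 1 symbol, 436 with several and 9780 with none.

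Probe sets were tested if the mean of log2(signal + 16) on 9 arrays exceeded its 40th percentile (6.61, a signal of 81.9). The mean was taken on the log2 scale after both scales had been tried, because this gave the counts of an earlier analysis of these data. No further scaling was applied. All arrays were fitted with limma 3.58.1 in R 4.3.3 (lmFit, eBayes with an intensity trend), with group and, as a replicate block, the preparation. Residual and prior degrees of freedom were 4 and 10.7. The script was tested on simulated data. The pairing comes from the design text. Deviations from group means correlated at 0.09 to 0.27 within preparations and -0.21 to 0.05 between them. Since group means were subtracted, positive values within preparations force lower ones between them, so these ranges are not independent. The members, gene lists and naming rules were chosen with earlier results of these data known.

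Named were all member probe sets, Atf3, Jdp2, Maff, Srf and Dusp1, up to 4 called genes per list and comparison with the smallest p, and the 3 genes nearest in pattern to each called member. Map2k1, Il1b, Zfp36, Elavl1, Cops5, Plau, Cdkn1a, Timp1, Lgals3, Acta2 and some further values of named genes were added outside this rule, after the values were seen. So were the markers Akr1b7, Akr1b8, Cyp11b1, Hbb, Shh and Kcnk9. Each list gene is given by its brightest probe set. Of the 4 lists around AP-1 with 38, 48, 21 and 41 entries, 29, 35, 19 and 34 were tested. The 10 marker lists covered zona glomerulosa, zona fasciculata, medulla, endothelium, macrophage, fibroblast, smooth muscle, lymphocyte, red blood cell and adipocyte. The number of arrays limits the precision. Alternatives were other scalings, pseudocounts (1 and 64), filters (none and the 60th percentile), variance models, blocks and omissions of arrays.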

Additional observations from a re-analysis of the deposited data

How the results depend on the processing

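Over 33 results (11 probe sets in 3 comparisons) and up to 21 alternative settings each, 622 of 690 values kept their sign and their side of the threshold, 25 lost a call, 27 gained one and 16 changed sign, none of them a called value. The decrease of Fosl1, the increase of Junb and the increases of both Fosl2 probe sets after potassium were called in all 21. The sign changes were in values near 0. For Fos in Ang II against potassium they were 0.00 with quantile normalization, and -0.08 to 0.02 over the omissions of arrays. For Fosl2 1383860_at after Ang II the value was 0.07 with scaling of arrays to a common median, and -0.11 to 0.05 over the omissions. For Jun 1369788_s_at between the stimuli it was -0.19 to 0.20, and for Jund 1393138_at after Ang II -0.01 with quantile normalization and -0.10 to 0.23 over the omissions. The number of members called was 0 after Ang II and 2 between the stimuli without an intensity trend, and 4 and 8 in fits of the 2 groups compared. It was 8 between the stimuli with quantile normalization and with the filter at the 60th percentile. Over the omissions it was 0 to 3 after Ang II, 6 to 7 after potassium and 3 to 6 between the stimuli. Without the intensity trend none of the 11 was called after Ang II, though the fitted changes were the same. Without the replicate block 197, 506 and 442 of all probe sets were called after Ang II, after potassium and between the stimuli, against 409, 998 and 892, and without the intensity trend 38, 258 and 156. Over the omissions these counts were 143 to 277, 432 to 723 and 275 to 607. Scaling arrays to a common median gave 557 between the stimuli, and moved the split of higher and lower calls from 310 and 99 to 431 and 33 after Ang II and from 518 and 480 to 722 and 177 after potassium. It moved the median of all probe sets from -0.03 to 0.09 and from -0.02 to 0.10. A filter on the mean signal in place of the mean log2 value, added after the data were seen, gave 404, 1004 and 893 calls over all probe sets and 2, 6 and 6 over the members. The sixth was Jun 1389528_s_at between the stimuli (adjusted p = 0.049 in limma's test, against 0.051). The cause of these changes was not tested.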

Other observations

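The probe sets of Jun differed in the direction of their change in 1 preparation. In preparation 1 the log2 difference of potassium from control was -0.09 on 1369788_s_at, 0.52 on 1374404_at and 0.45 on 1389528_s_at. In preparation 2 it was 0.77, 0.84 and 0.53, and in preparation 3 it was 0.43, 0.58 and 0.41. The cause was not tested.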
